A study of Mus musculus with 11 samples.

Results

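The genes described here encode the proteins of the cytosolic ribosome, the machine that translates mRNA. They were chosen by symbol alone, as the genes of the expression table named Rpl or Rps with a number (paralogs with a final letter l included), together with Rplp0, Rplp1, Rplp2 and Rpsa, and with pseudogenes left out. The rule found 84 of the 12932 genes in the table, of which 31 encode proteins of the small (40S) subunit, 46 encode proteins of the large (60S) subunit and 7 encode paralogs (Rpl22l1, Rps27l, Rpl39l, Rpl36al, Rpl7l1, Rpl3l and Rps4l) that resemble a main ribosomal protein. The 77 genes that are not paralogs are called core genes. All 84 genes passed the filter on low values, and they lie on 19 chromosomes, with 14 of them on chromosome 7 and 4 on the X chromosome.

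The study asked what the loss of the retinoid X receptors RXRα and RXRβ, nuclear receptors that partner many other nuclear receptors, does to the macrophages of the lung airspace. RNA was sequenced from sorted alveolar macrophages of 9-week-old mice of both sexes on a C57BL/6J background. The CD11cCre- Rxrabfl/fl littermate controls gave mature alveolar macrophages (mAMs, CD11b- SiglecF+; group mAM_WT, 4 libraries). The CD11cCre+ Rxrabfl/fl mice gave mAMs (group mAM_KO, 4 libraries) and immature alveolar macrophages (ImmAMs, CD11b+ SiglecF+; group ImmAM_KO, 3 libraries, numbered 2 to 4). Both floxed genes were therefore carried by all mice, and the Cre driver acts in every cell that uses the CD11c promoter, dendritic cells included. No ImmAM library from control mice was analysed here, so in ImmAM_KO against mAM_WT the genotype and the sorting gate cannot be told apart. The study's own comparison of the mAM groups used mAM_KO 1 to 3, and the fits below did the same, so that they hold 10 libraries. Values of mAM_KO 4 are given beside the results it touches.

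Each ribosome holds a single copy of almost every one of these proteins, and cells make them in balanced amounts. Ribosomal protein genes are among the most transcribed genes of a cell, and their mRNAs carry a 5′ terminal oligopyrimidine (TOP) motif, a C followed by a run of pyrimidines at the cap, through which mTORC1 signalling sets their translation. Subunit assembly begins in the nucleolus, where RNA polymerase I makes the ribosomal RNA, and cells raise ribosome production with growth and division.

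The bases around the annotated transcription start were searched for runs of pyrimidines, and they are printed for genes the results turn on. RefSeq promoters (GRCm38.p6) were matched for 63 of the 84 genes, 57 of them core genes. A pyrimidine run, defined as a C followed by at least 5 bases of C or T, was searched on the strand that reads as the mRNA. The window held the 30 bases centred on the start (15 before it and 15 from it onward). A run counted anywhere in this window, also before the start, so it need not be a TOP motif at the cap. Such a run was found in 33 of 57 core genes (57.9%) and in 3 of 6 paralogs (50%), against 25.5% of the 27025 genes with a promoter. Those 27025 include genes absent from the expression table, and the share among the other genes of that table was not computed for this run. The windows of the 5 core genes with the largest rise in ImmAMs, and of Rps12, Rpl38 and Rplp2 described further on, read 5′ to 3′ as follows, with the run in capitals.
Rpl13 (chr8:123102335-123102364, plus strand): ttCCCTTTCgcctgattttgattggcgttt
Rpl11 (chr4:136053379-136053408, minus strand): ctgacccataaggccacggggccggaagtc
Rpl35 (chr2:39005117-39005146, minus strand): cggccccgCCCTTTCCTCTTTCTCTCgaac
Rpl28 (chr7:4792950-4792979, plus strand): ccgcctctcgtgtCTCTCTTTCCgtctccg
Rps6 (chr4:86857353-86857382, minus strand): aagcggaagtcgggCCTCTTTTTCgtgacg
Rps12 (chr10:23787195-23787224, minus strand): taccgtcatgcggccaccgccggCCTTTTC
Rpl38 (chr11:114668565-114668594, plus strand): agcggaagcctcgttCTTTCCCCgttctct
Rplp2 (chr7:141447636-141447665, plus strand): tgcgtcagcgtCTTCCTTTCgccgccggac
The window of Rpl11 held no such run. A start annotated some bases away from the cap would move the run out of the window, so a missing run says only that these letters are absent there.

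The windows of paralogs are shown because these genes differed among themselves, with 4 of 7 falling and 1, Rpl36al, rising in ImmAMs against the controls. Rps27l is set below its parent Rps27.
Rps27 (chr3:90213634-90213663, minus strand): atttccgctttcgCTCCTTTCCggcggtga
Rps27l (chr9:66946071-66946100, plus strand): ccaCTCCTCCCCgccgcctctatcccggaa
Rpl22l1 (chr3:28805493-28805522, plus strand): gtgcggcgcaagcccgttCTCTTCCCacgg
Rpl7l1 (chr17:46782642-46782671, minus strand): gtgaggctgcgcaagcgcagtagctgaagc
Rpl36al (chr12:69184053-69184082, minus strand): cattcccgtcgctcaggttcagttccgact
Rps27l and Rpl22l1 held a run, and Rpl7l1 and Rpl36al did not. The exact letters CTCTTT stood in this window in 14.0% of core genes against 1.33% of all genes with a promoter. For CTTTCC, which may overlap it, these were 15.8% and 1.67%. The ETS-family motif CCGGAAG was searched on both strands of the whole promoter of 300 bases (250 before the start and 50 from it onward). It was found in 42.1% of core genes, against 9.93% of all genes with a promoter and 21.2% of the other genes of the table. The direct repeat to which RXR heterodimers can bind, 2 copies of AGGTCA 1 base apart, was searched in the same way. It was found in 0 of 57 core genes and in 13 of all 27025 genes with a promoter (0.0481%). So rare a match would be missing from nearly any 57 genes, so its absence here says nothing about RXR binding. These matches describe the sequence, and binding was not measured here.

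The libraries held 16659960 to 37873532 reads assigned to genes, as recovered from the deposited CPM, which are counts scaled to the size of the library. Rxra was at 310.2 to 380 CPM in mAM_WT, 334 to 351 in mAM_KO 1 to 3 and 283 to 305 in ImmAM_KO, and Rxrb at 51.4 to 72.1, 39.3 to 52.8 and 31.9 to 35.2. These are sums over whole genes in which reads from exons outside the deletion still count, so they do not check the genotype. All 10 alveolar macrophage markers examined were in the table. In ImmAM_KO, 8 were lower than in mAM_WT and 1 was higher at a p-adj under 0.05. Among the 8 were Siglecf, at 257 CPM in mAM_WT and 19.6 in ImmAM_KO, and Marco, at 342 and 12.6. Summed over the 10 genes, the level was 18906 to 24709 CPM in mAM_WT, 23187 to 29040 in mAM_KO 1 to 3 and 22398 to 24091 in ImmAM_KO. The 4 monocyte markers in the table, which include Itgam (CD11b, used in the gate) and Ccr2, summed to 14.8 to 20.7, 20.3 to 35.1 and 256 to 259 CPM. Of the 5 interstitial macrophage markers in the table, 4 were higher in ImmAM_KO than in mAM_WT, among them C1qa, at 0.0314 CPM in mAM_WT and 27.2 in ImmAM_KO, and 1, the abundant Mrc1, was lower, at 2478 and 1488 CPM. They summed to 2106 to 2689, 2605 to 2669 and 1649 to 1731 CPM, and 5 neutrophil markers, 4 of them higher in ImmAM_KO, to 30.7 to 39.5, 31.6 to 40.6 and 51.7 to 61.9 CPM. Clec9a, the dendritic cell marker in the table, was at 4.79 to 6.59, 5.12 to 7.41 and 17.7 to 22.3 CPM. The T cell, NK cell, endothelial and fibroblast marker lists had no gene in the table. The part of these differences in the results below was not tested.

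The summed level of the 84 genes was higher in ImmAMs than in either mAM group. It was 20059.8, 23264, 20441.5 and 25136 CPM in mAM_WT 1 to 4, 19848, 20129 and 18521 CPM in mAM_KO 1 to 3, and 30654, 31669.5 and 32322 CPM in ImmAM_KO 2 to 4. Every ImmAM library lay above every mAM library, mAM_KO 4 (26589 CPM) included, whereas the mAM groups overlapped. The mean was 31548 ± 840.4 CPM (SD, n = 3) in ImmAM_KO and 22225 ± 2409.8 (SD, n = 4) in mAM_WT, a ratio of 1.42. The mean of mAM_KO was 19499.6 ± 859 CPM (SD, n = 3), and the ratio of ImmAM_KO to it was 1.62. In a bulk library of sorted cells, fewer cells of a type and less RNA per cell cannot be told apart, and the sum is a share of each library and not an amount per cell. No p-value is given for sums over the genes.

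Both subunits took part in this. The 40S genes summed to 9431 ± 917 CPM in mAM_WT (SD, n = 4) and 13430.1 ± 389.9 in ImmAM_KO (SD, n = 3), a ratio of 1.42, and the 60S genes to 12524 ± 1484 and 17883 ± 465 CPM, a ratio of 1.43. Within a library the 60S sum divided by the 40S sum was 1.33 ± 0.0285 in mAM_WT (SD, n = 4), 1.29 ± 0.0450 in mAM_KO 1 to 3 and 1.33 ± 0.0152 in ImmAM_KO (SD, n = 3 each), and these overlapped. The 7 paralogs did not take part in the rise, with a summed 270.4 ± 16.4 CPM in mAM_WT (SD, n = 4), 232 ± 4.46 in mAM_KO and 235 ± 2.90 in ImmAM_KO (SD, n = 3 each).

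**Figure D1:**
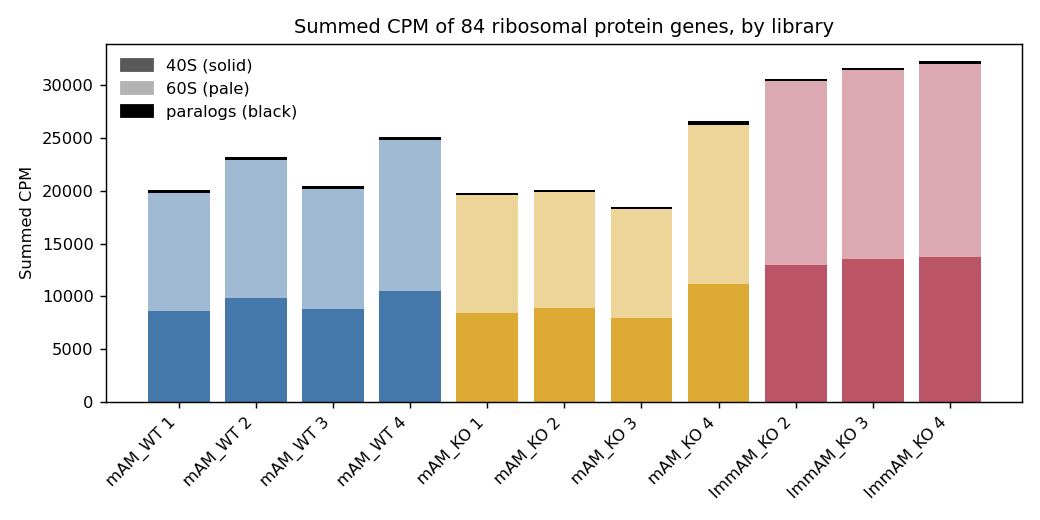
Summed CPM of the ribosomal protein genes in each of the 11 libraries, stacked by 40S genes, 60S genes and paralogs, with the vertical axis in CPM from 0. The 3 ImmAM_KO libraries stand at 30654 to 32322 CPM and the mAM_WT libraries at 20059.8 to 25136 CPM, and mAM_KO 4 stands above the other mAM_KO libraries.

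In ImmAM_KO against mAM_WT, 71 of the 84 genes (84.5%) were higher at a p-adj under 0.05 (limma, adjusted over 12889 genes), where 22.8% of all genes tested were higher. Another 4 genes, all paralogs, were lower, where 25.3% of all genes were, and 9 did not pass the test. The median log2 fold change of the 84 was 0.52 (1.43-fold), and that of all genes was 0.00. Of the core genes, 70 of 77 rose and all 77 had a positive log2 fold change, with a median of 0.53. Of the 40S genes 30 of 31 rose (median 0.55), and of the 60S genes 40 of 46 (median 0.51). The libraries of both groups did not overlap for 67 of the 84 genes in the higher direction (79.8%), against 24.9% of all genes. The 7 core genes that did not pass were Rps2, Rpl29, Rpl18, Rpl41, Rplp1, Rpl10a and Rpl36.

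Rpl13, a 60S protein encoded at chr8:123102350-123105244 (GRCm38), had the largest rise. It was at 217, 319, 235 and 402 CPM in mAM_WT 1 to 4, 255, 192 and 190.4 in mAM_KO 1 to 3, and 587, 581 and 663 in ImmAM_KO. Every ImmAM library stood far above every mAM library, with 451 CPM in mAM_KO 4 the nearest. The log2 fold change of ImmAM_KO over mAM_WT was 1.10 (SE 0.179, p-adj = 0.000235). Reads of this gene are divided with a near-identical copy in the genome, and for gene and copy summed it was 0.65 (p-adj = 4.51e-05). Such sums are given after each gene below that has a copy in the table.

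Rpl11 (chr4:136028265-136053428) and Rpl35 (chr2:39001580-39005624) followed. Rpl11, which with Rpl5 and the 5S rRNA forms a particle that can bind MDM2, was at 83.1, 133, 72.7 and 150.1 CPM in mAM_WT and at 184, 209 and 222 in ImmAM_KO. Its log2 fold change was 0.96 (SE 0.210, p-adj = 0.00214), and 0.34 when summed with its copies (p-adj = 0.00996). Rpl35, which sits at the exit of the peptide tunnel, was at 45.9, 76.4, 46.6 and 111 CPM in mAM_WT and at 125, 135 and 121 in ImmAM_KO, a log2 fold change of 0.96 (SE 0.248, p-adj = 0.00622), and of 0.55 with its copies (p-adj = 0.000245). Neither gene overlapped between the groups, and in both mAM_WT 4 was the control library closest to the ImmAMs.

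Rpl28 (chr7:4792874-4795066) was at 73.3, 133, 73.5 and 200.2 CPM in mAM_WT and at 207, 230.5 and 203 in ImmAM_KO, so that mAM_WT 4 nearly reached the lowest ImmAM library. Its log2 fold change was 0.96 (SE 0.273, p-adj = 0.0110), and 0.50 with its copies (p-adj = 0.00718). Rpl30 was at 177, 217, 136 and 276 CPM in mAM_WT and at 365, 398 and 340.5 in ImmAM_KO, a log2 fold change of 0.91 (SE 0.179, p-adj = 0.000983), and of 0.66 with its copies (p-adj = 6.51e-06). All its ImmAM values stood above all its mAM values.

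Rps6, the 40S protein phosphorylated by the S6 kinases downstream of mTORC1 (chr4:86854660-86857412), also had a large rise. It was at 255, 290.0, 226 and 309.6 CPM in mAM_WT 1 to 4, 286, 230.4 and 239 in mAM_KO 1 to 3, and 482, 525 and 514 in ImmAM_KO. The ImmAM libraries were close together and all lay well above the mAMs. The log2 fold change over mAM_WT was 0.92 (SE 0.105, p-adj = 1.15e-05), and 0.57 with its copies (p-adj = 2.7e-06). Rps27a, made as a fusion with ubiquitin, was at 155, 199, 135 and 207 CPM in mAM_WT and at 282, 262 and 278 in ImmAM_KO, again without overlap, and rose by 0.68 on the log2 scale (p-adj = 0.00112), or by 0.42 with its copies (p-adj = 9.84e-05).

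Among the sums of gene and copies, Rps28 and Rpl21 had the largest log2 fold changes over mAM_WT, and they are given here although the rule for named genes, which used the gene's row, did not select them. Rps28, a small 40S protein, was at 137, 166, 137 and 185 CPM in mAM_WT and at 288, 280.4 and 283 in ImmAM_KO (log2 fold change 0.87, p-adj = 3.04e-05, and 0.92 with its copies). Rpl21 was at 58.6, 55.8, 60.2 and 52.9 CPM in mAM_WT and at 104, 90.3 and 98.9 in ImmAM_KO (log2 fold change 0.78, p-adj = 1.97e-06 for the sums, where no copy was added to it). Neither overlapped between the groups, and Rpl21 was lowest in mAM_WT 4, the library in which most core genes were highest.

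**Figure D2:**
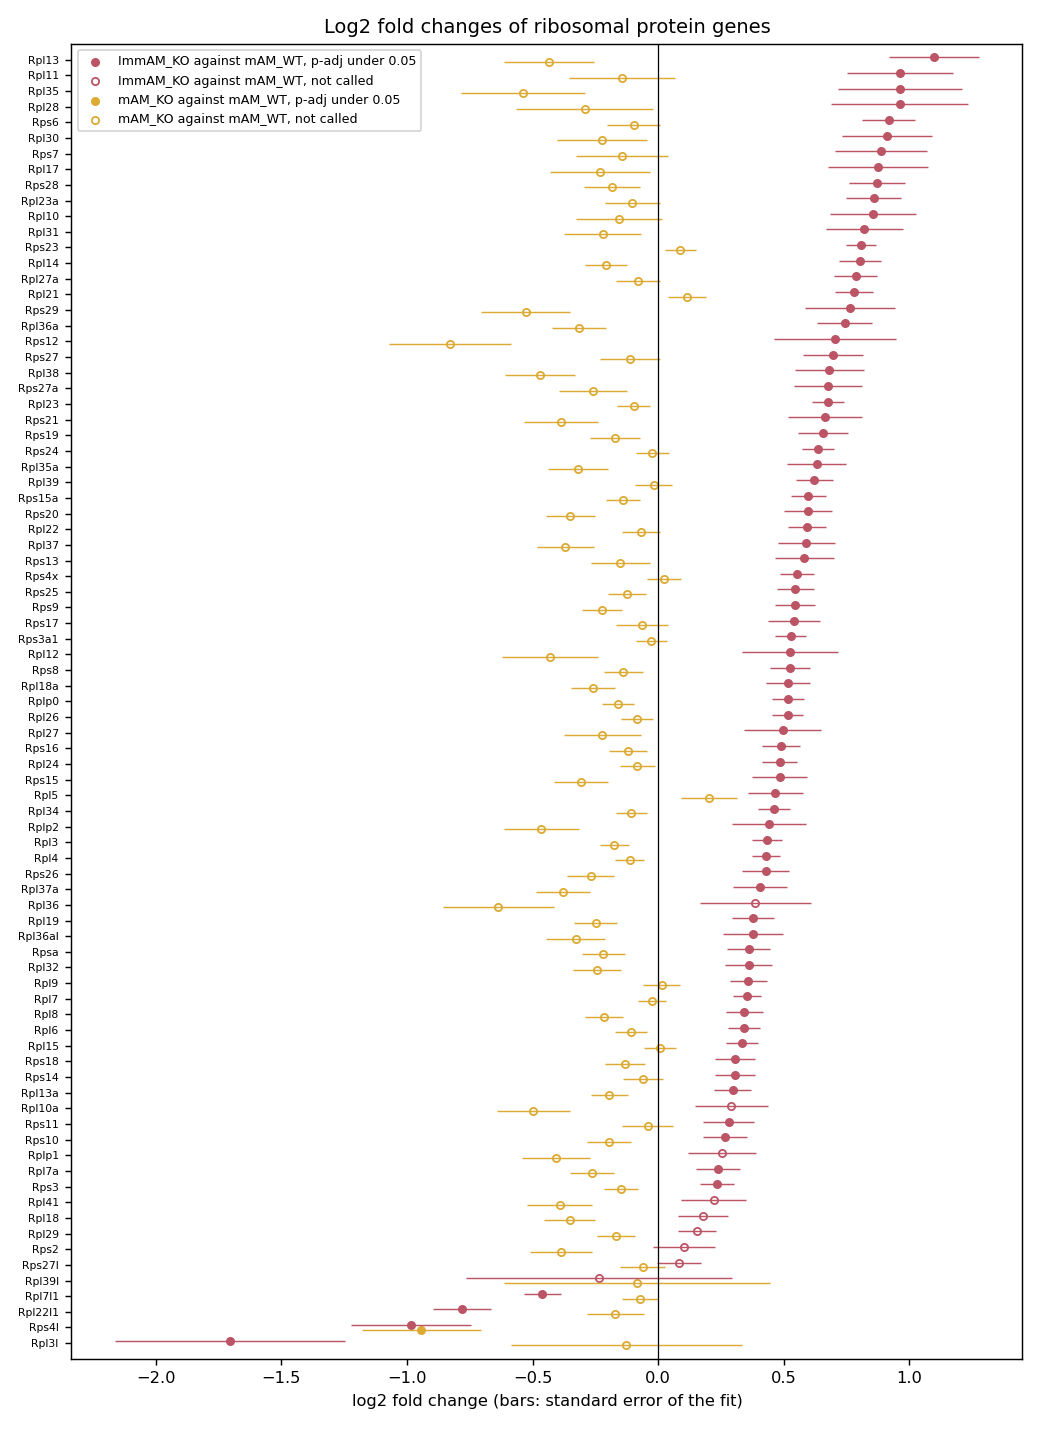
Log2 fold change over mAM_WT of 83 of the 84 genes, sorted by the ImmAM_KO value, with ImmAM_KO in red, mAM_KO in yellow, SE as bars and filled points at a p-adj under 0.05. The core genes shown stand above 0 in ImmAM_KO, the 4 genes called lower are all paralogs, and the mAM_KO points lie mostly a little below 0.

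The genes of several named parts of the ribosome were looked at apart. In the P stalk, which recruits the translation factors, 2 of 3 genes rose, although the call of Rplp2 was lost under 8 alternatives, the replicate block included. Rplp0 was at 884, 929, 864 and 969 CPM in mAM_WT and at 1246, 1338 and 1327 in ImmAM_KO (log2 fold change 0.52, SE 0.0625, p-adj = 1.85e-05). Rplp2 was at 213, 298, 259.6 and 381 CPM in mAM_WT and at 375, 390.0 and 383 in ImmAM_KO (log2 fold change 0.44, SE 0.149, p-adj = 0.0263). Rplp1 was at 420.3, 575, 444 and 671 CPM and at 587, 636 and 629.7 CPM (log2 fold change 0.25, p-adj = 0.142). Rplp0 separated the groups, while for Rplp1 and Rplp2 the library mAM_WT 4 lay inside or above the ImmAM range.

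Of the 5S particle, Rpl5 was at 26.7, 24.1, 21.6 and 24.0 CPM in mAM_WT and at 34.4, 33.3 and 32.0 in ImmAM_KO, without overlap (log2 fold change 0.47, SE 0.111, p-adj = 0.00377). Most reads of this gene and its copies lay in the row of a copy, as given further on. All 8 genes of the rim of the exit tunnel rose (Rpl17, Rpl19, Rpl22, Rpl23a, Rpl26, Rpl31, Rpl35 and Rpl39). Their median log2 fold change was 0.72 by their own rows. Rpl17, Rpl19, Rpl23a, Rpl31 and Rpl35 have copies, whose share of the sum was lower in ImmAM_KO than in mAM_WT for each. A median with these copies added is not given here, so 0.72 does not show a larger rise of the rim than of other core genes. All 10 ribosomal protein genes examined from those mutated in Diamond-Blackfan anaemia, an inherited failure of red cell production, rose too. This is near the share of all core genes, and their median was 0.59 by their own rows. Among the 10 were Rps19, at 0.66 (p-adj = 0.000134), and Rps24, at 0.64 (p-adj = 3.87e-06). Rps7, Rps26, Rpl35a, Rpl5 and Rpl11 have copies, whose share of the sum was lower in ImmAM_KO than in mAM_WT for all but Rpl5.

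The 4 X-linked genes all rose, as did 70 of the 77 core genes, which include them. Rps4x was at 674, 676, 664 and 655 CPM in mAM_WT and at 966, 949 and 1025 in ImmAM_KO (log2 fold change 0.55, p-adj = 2.03e-05). Rpl39 was at 140.1, 145, 147 and 139 CPM in mAM_WT and at 229, 199 and 233 in ImmAM_KO (log2 fold change 0.62, p-adj = 1.38e-05). In both, the control libraries differed little from each other and every ImmAM library stood above them. Rpl36a rose by 0.74 (p-adj = 9.6e-05), or 0.76 with its copies, and Rpl10 by 0.86 (p-adj = 0.00115), or 0.39 with its copies (p-adj = 0.00012).

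Set against mAM_KO, the ImmAMs of the same genotype differed by more. In this comparison the genotype is shared and the gate differs, and the ImmAM libraries are those of the comparison above, so the 2 sets of values are not independent. Of the 84 genes, 77 were higher (91.7%, against 17.7% of all genes tested) and 3, all paralogs, were lower (against 20.2%), and 4 did not pass. The median log2 fold change was 0.67 (1.59-fold). Of the 40S genes 31 of 31 rose (median 0.72) and of the 60S genes 45 of 46 (median 0.70). The libraries, without mAM_KO 4, did not overlap for 78 genes in the higher direction (92.9%, against 24.8% of all genes). For some of these genes mAM_KO 4 lay above every ImmAM library, as for Rpl37a (339 CPM against 296 to 313) and Rpl41 (437 against 341 to 408). For others it lay below them, as for Rpl13 (451 against 581 to 663). With all 11 libraries the median log2 fold change was 0.58. The 1 core gene that did not pass was Rpl5, with a log2 fold change of 0.26 (SE 0.119, p-adj = 0.0986).

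The genes with the largest rises over mAM_KO were again led by Rpl13, with a log2 fold change of 1.53 (SE 0.191, p-adj = 3.64e-05), and 0.95 with its copy (p-adj = 4.05e-06). Rps12, a 40S protein, was at 157, 99.7 and 115 CPM in mAM_KO 1 to 3 and at 341, 379 and 337 in ImmAM_KO, a log2 fold change of 1.53 (SE 0.260, p-adj = 0.000463), and of 0.85 with its copies (p-adj = 4.03e-06). Rpl35 was at 50.6, 48.4 and 37.0 CPM in mAM_KO (log2 fold change 1.499, p-adj = 0.000632), and its sum with its copies gave 0.80 (p-adj = 2.69e-05). Counted by their own rows, all 3 genes stood more than 1 log2 unit apart, with no overlap between these 6 libraries, but mAM_KO 4, at 139 CPM for Rpl35, lay above every ImmAM library of that gene.

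Rps29 was at 111, 112 and 91.0 CPM in mAM_KO and at 256, 244 and 266 in ImmAM_KO (log2 fold change 1.29, p-adj = 0.000150). Rpl28 rose by 1.25 (p-adj = 0.00434), or by 0.82 with its copies (p-adj = 0.000456). Rpl38, a small 60S protein known for its part in the translation of Hox mRNAs, was at 74.9, 70.3 and 71.4 CPM in mAM_KO and at 162, 160.0 and 159.9 in ImmAM_KO (log2 fold change 1.15, p-adj = 4.41e-05). For Rpl38, mAM_KO 1 to 3 were nearly level and far below the ImmAMs, but mAM_KO 4, at 135 CPM, lay between them and nearer to the ImmAMs. Rps29 was at 229.9 CPM in mAM_KO 4, also near the ImmAMs. For Rps12 and Rpl28 mAM_KO 4, at 361 and 196 CPM, lay in or just below the ImmAM range.

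In mAM_KO against mAM_WT, only 1 of the 84 genes passed the test, the paralog Rps4l, and it was lower. Over all genes tested, 2.25% were higher and 2.59% lower. The median log2 fold change of the 84 genes was −0.17, against 0.00 for all genes, and 78 of the 84 values were negative. At an unadjusted p under 0.05, 38 genes were lower and 0 higher, where 1644 of all 12889 genes were lower and 1398 higher. The libraries did not overlap in the lower direction for 18 genes (21.4%, against 11.2% of all genes), among them Rps9, Rpl3, Rpl4 and Rplp0. When mAM_KO 4 was added, all 18 overlapped and the median of the 84 became −0.07. Adding a library can only lower the count of genes without overlap. The lower values therefore depended in part on leaving out that library, whose summed level was the highest of the mAMs. With it the summed mean was 21272 ± 3613 CPM in mAM_KO, against 22225 ± 2409.8 in mAM_WT (SD, n = 4 each). The count of calls also moved with the control libraries and the tool. Without mAM_WT 1, limma called 18 of the 84, all lower, and on the recovered reads DESeq2 called 18 and edgeR 0.

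Rps4l (chr6:148354656-148355598), a paralog of Rps4x, was at 27.8, 36.1, 35.0 and 35.8 CPM in mAM_WT, 10.4, 25.1 and 20.4 in mAM_KO 1 to 3 and 32.7 in mAM_KO 4. Those of mAM_KO 1 to 3 lay below every control library, but mAM_KO 4 lay among the controls. The log2 fold change was −0.94 (SE 0.238, p-adj = 0.0433), and with all 11 libraries it was −0.71 and did not pass. The core genes farthest from the median were Rps12, at −0.83 (SE 0.243, p-adj = 0.0679; −0.25 with its copies), and Rpl36, at −0.64 (SE 0.221, p-adj = 0.107). Rpl36 was at 66.6, 99.8, 73.2 and 149 CPM in mAM_WT, 60.8, 64.3 and 53.6 in mAM_KO 1 to 3 and 132 in mAM_KO 4. The 3 values lay just below the control range and mAM_KO 4 inside it.

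**Figure D3:**
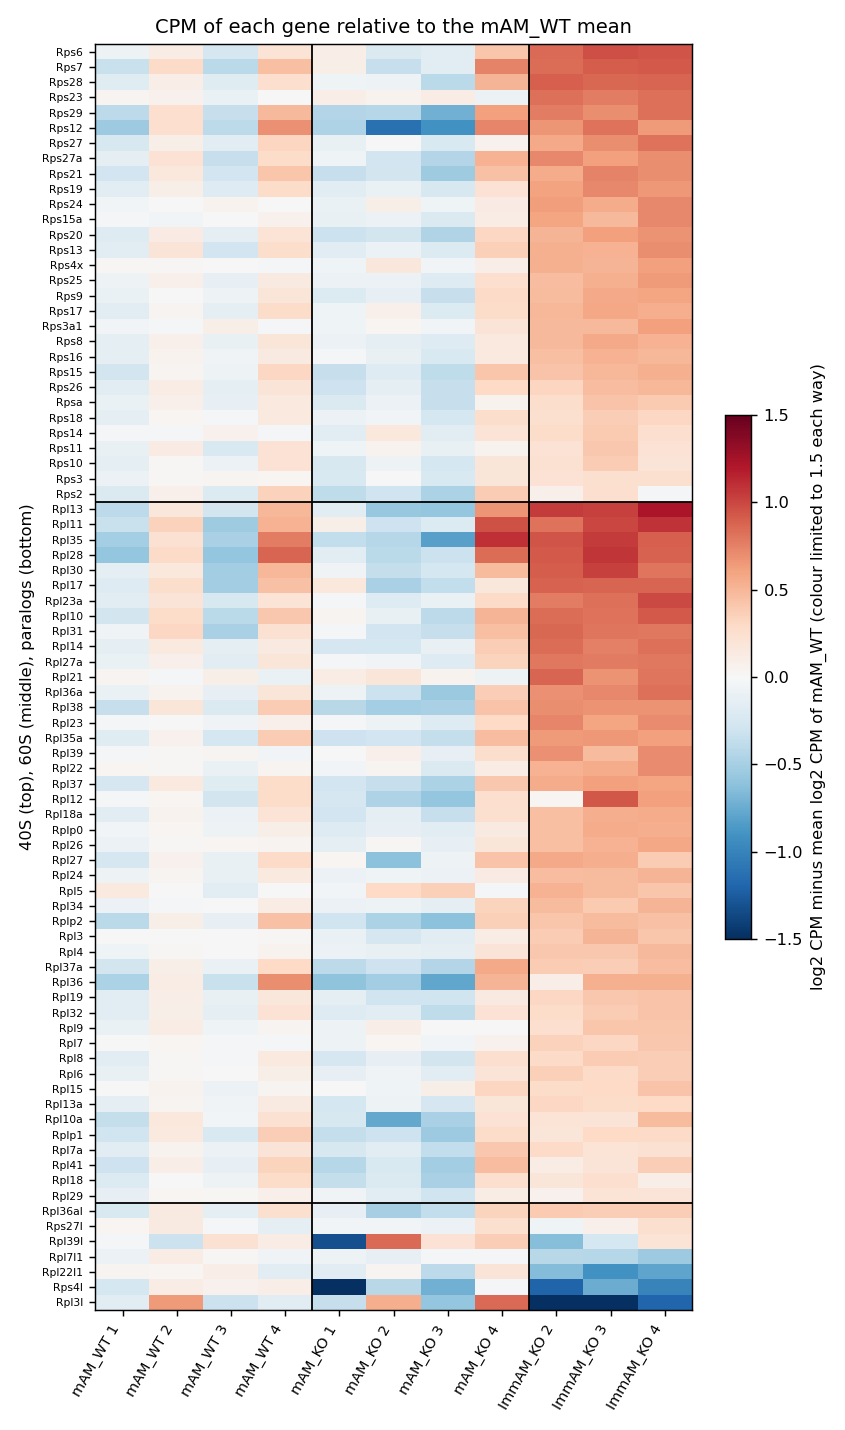
Log2 CPM of 83 of the 84 genes in the 11 libraries, minus the mean log2 CPM of mAM_WT, with 40S genes at the top, 60S genes in the middle and paralogs at the bottom; colours are limited to 1.5 log2 units each way. The 3 ImmAM_KO columns are red for nearly every core gene, and mAM_WT 4 and mAM_KO 4 are redder than the other mAM columns.

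The core genes moved together between mAM libraries of 1 group. The library mAM_WT 4 had the highest level of the controls for 63 of the 77 core genes, and mAM_WT 1 the lowest for 45. With all 4 mAM_KO libraries, mAM_KO 4 was highest for 71 core genes and mAM_KO 3 lowest for 48. The median of the 84 genes relative to the control mean was −0.14, 0.07, −0.12 and 0.19 log2 units in mAM_WT 1 to 4, −0.13, −0.13 and −0.26 in mAM_KO 1 to 3, 0.26 in mAM_KO 4 and 0.47 to 0.54 in ImmAM_KO. The 1242 other genes with transcripts of up to 1 kb, which share the short length of the ribosomal protein mRNAs, had medians of −0.05, 0.02, −0.03 and 0.11 in mAM_WT, −0.14 to −0.02 in mAM_KO 1 to 3, 0.11 in mAM_KO 4 and −0.05 to 0.02 in ImmAM_KO. Between mAM libraries the short genes thus leaned the same way as the ribosomal protein genes. In ImmAMs the short genes stayed near 0, while the ribosomal protein genes did not.

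Transcript length within the ribosomal protein genes gave a similar split. The 22 core genes with transcripts of up to 600 bases had a median log2 fold change of −0.28 in mAM_KO against mAM_WT, and the 53 longer ones −0.17. In 425 other genes of up to 600 bases the median was −0.10. Across 75 core genes Spearman's rho between transcript length and this fold change was 0.31, a description over genes that share the same libraries. In ImmAM_KO against mAM_WT the medians were 0.59 for the short core genes and 0.52 for the longer ones, and 0.03 for the other short genes. Against mAM_KO these medians were 0.80, 0.67 and 0.16, and rho was −0.29. The part of transcript length in the differences between any of the groups was not tested.

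The spread among the 4 control libraries varied widely from gene to gene. The coefficient of variation in mAM_WT had a median of 11.7% over the core genes. It was lowest for Rpl3 (0.79%), which helps to form the peptidyl transferase centre and was at 577, 574, 576 and 584 CPM, followed by Rps4x (1.45%) and Rpl7 (1.89%). It was highest for Rpl28 (50.3%), Rpl35 (43.9%), Rps12 (40.2%) and Rpl36 (38.7%). The steady genes rose in ImmAMs as well. Rpl3 was at 750.0, 820.1 and 773 CPM there (log2 fold change 0.43, p-adj = 5.26e-05), and Rpl7 rose by 0.35 (p-adj = 0.000178).

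The paralogs did not share the rise. Of the 7, only Rpl36al rose in ImmAM_KO against mAM_WT (log2 fold change 0.38, p-adj = 0.0183; 0.20 with its copies), and Rpl22l1, Rpl7l1, Rpl3l and Rps4l fell. Rpl22l1, a paralog that can stand in for Rpl22, was at 39.3, 39.1, 41.2 and 34.2 CPM in mAM_WT, 34.2, 39.5 and 29.3 in mAM_KO 1 to 3 and 24.5, 20.5 and 22.1 in ImmAM_KO. All ImmAM libraries lay below all mAM libraries. Its log2 fold change was −0.78 against mAM_WT (SE 0.114, p-adj = 9.31e-05) and −0.61 against mAM_KO (p-adj = 0.00154). Its parent Rpl22 went up over the same libraries, from 183, 182, 168 and 184 CPM in mAM_WT to 257, 264 and 292 in ImmAM_KO (log2 fold change 0.59, p-adj = 2.94e-05).

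Rpl7l1 was at 76.5, 88.1, 82.6 and 78.5 CPM in mAM_WT and at 61.2, 60.5 and 55.8 in ImmAM_KO, without overlap (log2 fold change −0.46, p-adj = 0.000178). Rps4l was at 14.6, 19.9 and 16.7 CPM in ImmAM_KO (log2 fold change −0.98, SE 0.238, p-adj = 0.00421), and against mAM_KO it did not pass the test (−0.04, p-adj = 0.918). Rpl3l, known from striated muscle, was near the filter, with 29 to 62 reads a library in mAM_WT and 6, 9 and 13 in ImmAM_KO. Its log2 fold change of −1.71 (SE 0.458, p-adj = 0.00796) rests on those few reads. Rps27l, a target of p53, was at 51.5 ± 4.20 CPM in mAM_WT (SD, n = 4) and 54.6 ± 5.68 in ImmAM_KO (SD, n = 3; log2 fold change 0.08, p-adj = 0.471). Rpl39l, known from the testis, was at 0.987 ± 0.154 CPM in mAM_WT (SD, n = 4) and 0.856 ± 0.254 in ImmAM_KO (SD, n = 3; log2 fold change −0.23, p-adj = 0.738).

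The level of a paralog as a percentage of its parent gene's CPM in the same library sets these against each other. For Rpl22l1 and Rpl22 it was 21.4%, 21.5%, 24.5% and 18.5% in mAM_WT, 19.6%, 21.4% and 19.0% in mAM_KO 1 to 3, and 9.56%, 7.76% and 7.57% in ImmAM_KO. No ImmAM library came near the mAM range. For Rpl7l1 and Rpl7 it was 14.9% to 16.9% in mAM_WT and 8.29% to 9.58% in ImmAM_KO, and for Rps27l and Rps27 21.8% to 36.3% and 19.4% to 20.1%. For Rpl36al and Rpl36a, which encode nearly the same protein from an autosome and the X chromosome, it was 77.2% to 89.7% in mAM_WT and 61.6% to 68.6% in ImmAM_KO.

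In all 7 pairs the percentage was lower in every ImmAM library than in every mAM_WT library, the differences in log2 units being −1.37 for Rpl22l1, −0.61 for Rps27l, −0.86 for Rpl39l, −0.37 for Rpl36al, −0.81 for Rpl7l1, −2.14 for Rpl3l and −1.54 for Rps4l. The two-sided exact permutation test gave p = 0.0286, the smallest that 4 against 3 libraries allow, for 6 of the pairs and p = 0.0571 for Rps27l. Adjusted over the 21 tests of 7 pairs in 3 comparisons, these became 0.0857 and 0.150, so that 0 of the 21 passed 0.05, where 7 had an unadjusted p under it. In mAM_KO against mAM_WT only Rps4l over Rps4x did not overlap, at 1.62%, 3.34% and 3.15% against 4.13% to 5.47% (exact permutation p = 0.0286, adjusted 0.0857), with mAM_KO 4 at 4.59%. Against mAM_KO, where an exact permutation test of 3 against 3 libraries cannot go under p = 0.1, 5 of the 7 pairs did not overlap and were lower in ImmAMs.

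**Figure D4:**
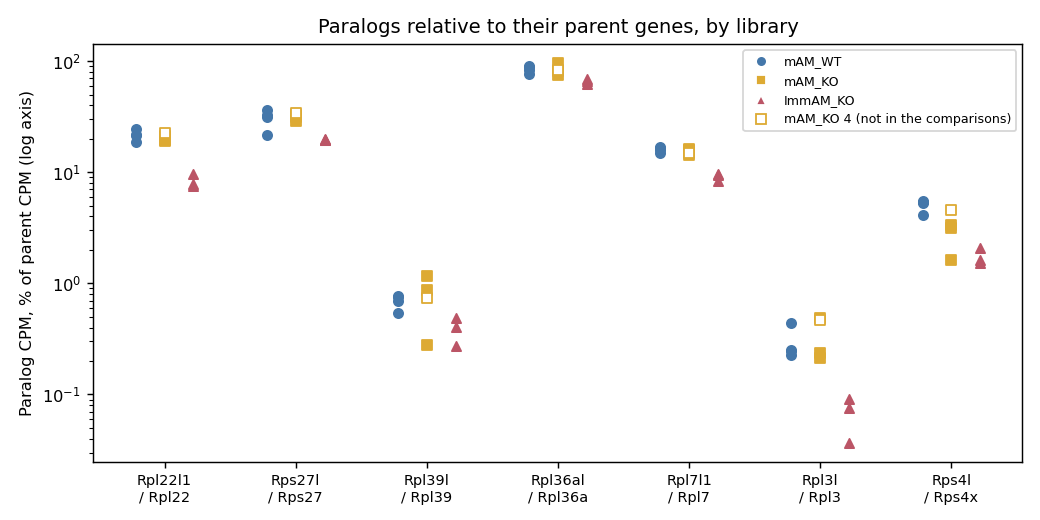
CPM of each paralog as a percentage of its parent gene's CPM in the same library, on a log axis, for 7 pairs, 1 point per library. In every pair the 3 ImmAM_KO points lie below the mAM_WT points, for Rpl22l1 over Rpl22 at 7.57% to 9.56% against 18.5% to 24.5%.

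Many ribosomal protein genes share sequence with processed copies elsewhere in the genome, and the estimated counts divide reads among them. For 42 of the 84 genes the table holds at least 1 row of such a copy, 60 copies in all. Rpl5 is the extreme case. It was at 24.1 ± 2.08 CPM in mAM_WT (SD, n = 4) while its copy Gm15500 was at 570 ± 23.4 CPM, so that nearly all of the summed level lay in the copy's row. In ImmAM_KO the copy was at 960 ± 39.7 CPM (SD, n = 3). Summed with its copies, Rpl5 rose over mAM_WT by 0.74 log2 units (p-adj = 3.38e-07) and over mAM_KO by 0.62 (p-adj = 5.92e-06), where the gene's row alone had not passed against mAM_KO. In 9 of the 42 genes the copies held over 50% of the sum in mAM_WT.

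For some genes the division differed between libraries. Rpl10 has 2 copies in the table. The copy Rpl10-ps1 was at 203, 73.2, 223 and 38.7 CPM in mAM_WT, 137, 280 and 215 in mAM_KO 1 to 3, and at 0.0229 to 0.0298 CPM, which is 0 reads, in mAM_KO 4 and the 3 ImmAM libraries. The copy Rpl10-ps3 was at 181, 34.5, 244 and 8.13 CPM in mAM_WT, 69.0, 29.0 and 153 in mAM_KO 1 to 3, 26.6 in mAM_KO 4 and 31.9, 11.8 and 29.3 in ImmAM_KO. Among the controls the row of Rpl10 was lowest where both copies were highest, at 541, 793, 492 and 863 CPM in mAM_WT 1 to 4. The sums of Rpl10 and both copies were nearly level in the mAMs, at 926, 901, 959 and 910 CPM in mAM_WT, 876, 912 and 867 in mAM_KO 1 to 3 and 959 in mAM_KO 4, and were 1199, 1162 and 1262 in ImmAM_KO.

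The same holds in part for Rpl13, Rps6 and Rpl11, where the copies held 31.3%, 32.4% and 64.8% of the sum in mAM_WT and 8.47%, 14.7% and 47.6% in ImmAM_KO. Rps12 and its copies summed to 271, 313, 311 and 349 CPM in mAM_WT, 255, 269 and 256 in mAM_KO 1 to 3 and 444, 471 and 496 in ImmAM_KO. These sums did not overlap between ImmAMs and mAMs. Of the 39 genes with copies that rose over mAM_WT by their own row, 12 had a log2 fold change more than 1.5 times that of the sum, and for 1 gene, Rpl5, the sum's was more than 1.5 times the row's. The size of the fold of a single gene with copies is therefore uncertain.

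**Figure D5:**
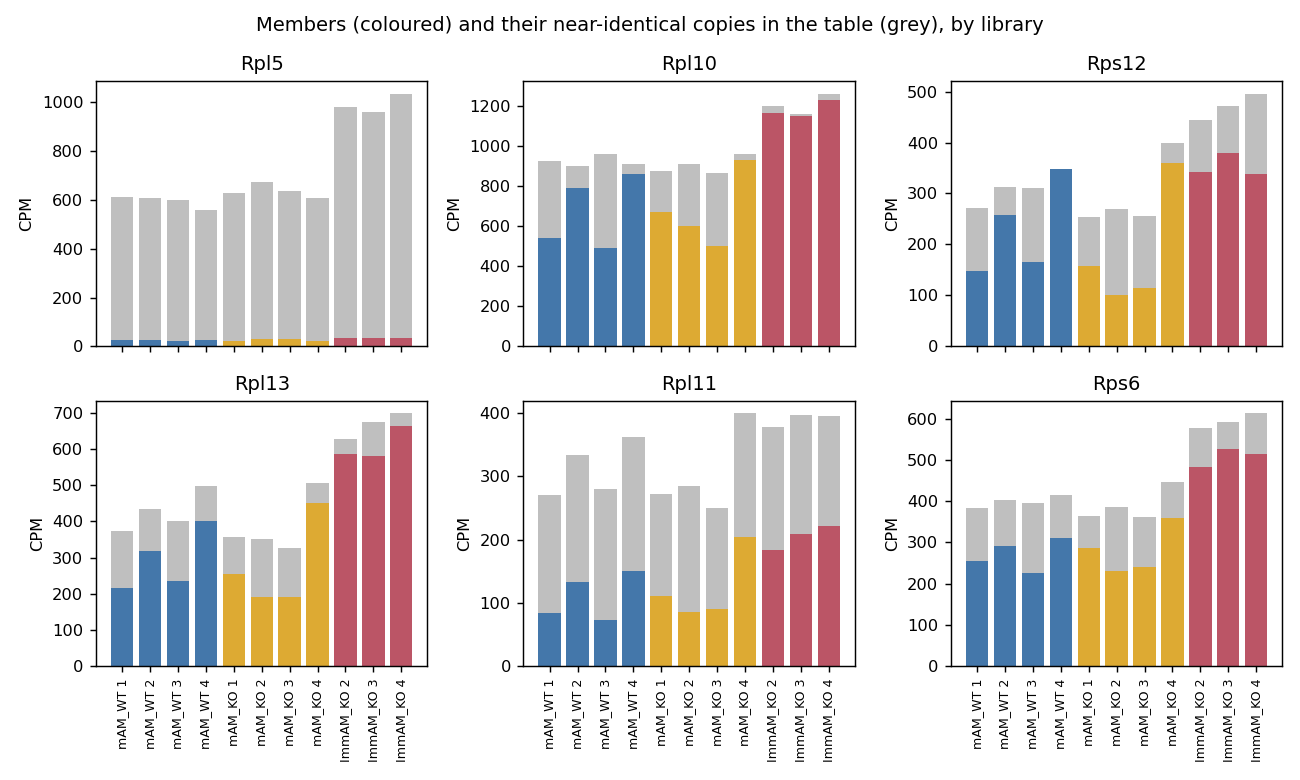
CPM by library of the gene (coloured) and of its copies (grey), stacked, for Rpl5, Rpl10, Rps12, Rpl13, Rpl11 and Rps6, with each vertical axis in CPM from 0. The whole bars are higher in the 3 ImmAM_KO libraries than in the mAM_WT libraries, and the grey part of Rpl10 is small in the ImmAMs and in mAM_KO 4, where Rpl10-ps1 is at 0 reads.

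The group as a whole kept its direction under this summing. With each gene summed with its copies, 70 genes rose and 4 fell in ImmAM_KO against mAM_WT, with a median of 0.48, and against mAM_KO 78 rose, with a median of 0.64. Among the 36 core genes that share no listed copy, 32 rose over mAM_WT (median 0.48). Genes with copies were also the more variable ones, with a median coefficient of variation in mAM_WT of 15.7%, against 8.39% for those without. When copies were added to their gene, the first value became 10.3%.

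Per kilobase of transcript, the levels in mAM_WT covered a wide range. The highest were Rplp1 at 1057, Rpl10 at 841 and Rps9 at 773 CPM per kb, and the lowest were the paralogs Rpl3l at 1.22 and Rpl39l at 1.23 and the gene Rpl5 at 11.8 CPM per kb, whose reads were mostly given to its copy. The core genes had a median of 354 CPM per kb, with quartiles at 196 and 469. Rps9 was at 581 ± 52.7 CPM in mAM_WT (SD, n = 4), 497 ± 37.1 in mAM_KO and 846 ± 36.8 in ImmAM_KO (SD, n = 3 each), and no pair of these groups overlapped, while mAM_KO 4, at 708 CPM, lay above the controls.

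Other genes of the translation machinery followed only in part. Ribosomal proteins under other symbols rose in ImmAM_KO against mAM_WT, among them Fau, a fusion with the 40S protein S30 (log2 fold change 0.47, p-adj = 0.00838), and the 40S scaffold Rack1 (0.28, p-adj = 0.00151). Of 16 other genes with TOP mRNAs, 11 rose and 1 fell, where 22.8% of all genes were higher and 25.3% lower, with a median of 0.34. Among them Eif4b, which aids the initiation helicase, went from 481 ± 20.4 CPM (SD, n = 4) to 727 ± 18.7 (SD, n = 3; log2 fold change 0.60, p-adj = 2.15e-06). The elongation factor genes Eef1a1, Eef1b2 and Eef1g rose by 0.46 (p-adj = 0.000147), 0.54 (p-adj = 1.53e-05) and 0.53 (p-adj = 0.000169).

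Genes that build ribosomes did not show the rise of the core genes. In ImmAM_KO against mAM_WT, where 22.8% of all genes were higher and 25.3% lower, 2 of 30 genes of subunit assembly and export rose and 11 fell (median −0.15), among them Bysl, needed for the 40S subunit (−0.74, p-adj = 8.63e-05), and the 40S export factor Ltv1 (−0.63, p-adj = 0.000312). Of 35 genes of RNA polymerase I and rRNA processing, 1 rose and 9 fell (median −0.13), a share of falls close to that of all genes, among them the polymerase subunit Polr1e (−0.89, p-adj = 0.000452) and Rrp12 (−0.68, p-adj = 0.00299). Of 34 initiation and elongation factors outside the TOP list, 2 rose and 10 fell, the falls again near the share of all genes. Eif5a, which keeps ribosomes moving at difficult sequences, went from 597 ± 19.6 CPM (SD, n = 4) to 320.5 ± 11.5 (SD, n = 3; log2 fold change −0.90, p-adj = 4.28e-08). Eif6, which keeps free 60S subunits apart from 40S, fell by 0.50 (p-adj = 0.000190).

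Against mAM_KO, 10 of the 16 TOP genes rose and 1 fell, and 3 of the 30 assembly genes rose and 6 fell, where 17.7% of all genes were higher and 20.2% lower. The medians of the TOP list (0.35 to 0.41), the assembly list (−0.14 to −0.11) and the polymerase I list (−0.12 to −0.09) in ImmAM_KO against mAM_WT kept their sign under 5 other scalings of the libraries. In mAM_KO against mAM_WT, Eif6 (−0.41, p-adj = 0.0167), Eif4h (−0.30, p-adj = 0.0179), Fbl (−0.48, p-adj = 0.0223) and Tcof1 (−0.34, p-adj = 0.0436) fell. Of 23 genes of mTORC1, MYC and TOP control, 6 rose and 6 fell in ImmAM_KO against mAM_WT, both near the shares of all genes. Myc, a driver of ribosomal protein transcription, went from 44.8 ± 12.6 CPM (SD, n = 4) to 25.5 ± 1.5 (SD, n = 3; log2 fold change −0.77, p-adj = 0.00518), and its antagonist Mxd4 fell by 0.72 (p-adj = 1.5e-05). The mTORC1 subunit gene Mlst8 fell by 0.93 (p-adj = 4.15e-06) and Deptor, an mTOR inhibitor, rose by 0.55 (p-adj = 7.12e-06). Of 13 genes of ribosome quality control, 4 rose and 3 fell in ImmAM_KO against mAM_WT, where 22.8% of all genes were higher and 25.3% lower. The largest of these changes was in Pelo, which rescues stalled ribosomes and fell by 0.94 log2 units (p-adj = 0.000803).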

How the data were processed

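The deposited values were CPM, counts scaled to the library, on library sizes scaled by the trimmed mean of M values (TMM). Per the study's methods and the submitters' processing notes, the authors trimmed 60-base single-end reads from directional polyA libraries of 40000 sorted cells with Cutadapt, estimated counts per gene with RSEM 1.3.1 on GRCm38 and kept genes of at least 1 CPM in at least 3 samples. Each value equalled a whole number of reads plus 0.5, multiplied by a step fixed per library (100% of values came out whole within 0.01), so reads and depth (16659960 to 37873532) were recovered and used in count-based alternatives. RSEM assigns reads by estimation, so genes with near-identical copies divide reads. A copy was any gene outside the 84 for which at least 50% of its own 60-base windows were found in a member's transcripts.

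CPM were compared on the log2 scale without pseudocount by limma 3.58.1 (R 4.3.3), with 1 mean per group, a variance trend, two-sided tests and Benjamini-Hochberg adjustment over 12889 genes at 0.05. The 10 libraries of the study's comparison entered, without mAM_KO 4. The 84 genes and all lists were chosen with earlier results of these data known. Genes were named if they had the 6 largest called rises or falls, the 3 highest or lowest levels per kilobase or the 3 largest departures from the median of the 84, or if they belonged to a paralog pair, the 5S particle, the P stalk, the X chromosome or (up to 4 called genes) a pathway list, with Rps6 and Rps27a. Paralog ratios had exact permutation tests. Transcript lengths came from GENCODE vM21, with Rps15a (5179 bases) and Rps20 (3706 bases) left out of length groups. Replicates were separate biological samples per the labels. Alternatives were edgeR 4.0.16, DESeq2 1.42.0 and limma-voom on the recovered reads, other scalings, filters and pseudocounts, sums over copies (chosen after seeing the data), a replicate block and each library left out. The fits were tested on simulated data. Results for a few genes are not reported here by name, although they count in the totals.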

Additional observations from a re-analysis of the deposited data

Results flagged for a closer look

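Of 72 groups of 4 libraries examined, 10 held a library far from the other 3. A single group gives this by chance about 1 time in 20. The groups share their libraries, and the core genes move together, so the 10 are not independent and were not compared with that rate. In mAM_WT these were the low value of Rpl22 in mAM_WT 3, at 168 CPM, the high value of Rpl3l in mAM_WT 2, at 2.51 CPM, and the low value of Rps4l in mAM_WT 1, at 27.8 CPM.

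In mAM_KO, with its 4 libraries together, mAM_KO 4 stood far above the other 3 in the summed 60S genes, at 15158 CPM, and in 6 genes. These were Rpl28 at 196 CPM, Rpl35 at 139 CPM, Rpl36 at 132 CPM, Rpl38 at 135 CPM, Rps29 at 229.9 CPM and the paralog Rps27l at 60.7 CPM. The summed level of all 84 genes in mAM_KO 4, which was left out of the main fit and entered the alternative with all 11 libraries, was 26589 CPM, above the highest control library.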

How the results depend on the processing

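Under all alternatives run, core genes were mostly higher in ImmAMs. In ImmAM_KO against mAM_WT, 66 to 78 of the 84 genes were called (75 reported), with medians of 0.48 to 0.61, and leaving out single libraries gave 68 to 79 and 0.49 to 0.59. Against mAM_KO, 76 to 81 were called (80 reported), and 78 to 80 with single libraries left out. The median of 0.67 became 0.58 with all 11 libraries and 0.73 after quantile normalization, and the cause was not tested.

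The single call in mAM_KO against mAM_WT was not stable. With all 11 libraries, short genes centred, only the 2 groups, no variance trend or edgeR, 0 of the 84 were called, with sums over copies 2, with DESeq2 18 and at a p-adj under 0.1 14. Leaving out single libraries gave 0 to 18, with 18 without mAM_WT 1, 2 without mAM_KO 2 and 0 without each other library, all lower. Medians ran from −0.24 to −0.13 with single libraries left out and from −0.18 to −0.07 under the other alternatives. Rps4l, mAM_KO against mAM_WT, lost its call under 13 alternatives, with a p-adj of up to 0.205. Rps12 and Rplp2 in ImmAM_KO against mAM_WT lost theirs under 9 and 8. In all, 37 of 1538 alternatives for named genes lost a call and 0 reversed. With the replicate block, 1, 69 and 77 genes were called in mAM_KO against mAM_WT, ImmAM_KO against mAM_WT and ImmAM_KO against mAM_KO, with medians of −0.14, 0.50 and 0.63, and it changed the call of Rps12 and Rplp2 among others.

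The sources used here do not state whether same-numbered libraries share a mouse. Same-numbered libraries among the 10 had correlations of −0.49 to 0.22 between their deviations from the group means. Not every library correlated best with its own number. Both ends of this range came from pairs with a control library, which cannot share a mouse with a Cre+ library. For mAM_KO and ImmAM_KO the correlation was 0.02 for number 2 and −0.17 for number 3. With so few libraries, whose deviations cancel out within a group, these values cannot decide whether mice were shared. The numbers were not taken as pairs because no source used here states a pairing.

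No paralog ratio passed the threshold after adjustment, and a few reads per library limit Rpl3l and Rpl39l.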
